A study of Mus musculus with 8 samples.

Results

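Long-term hematopoietic stem cells (LT-HSC) carrying a Tet1 knockout (KO) were compared with wild-type (WT) LT-HSC by RNA sequencing, using the 4 LT-HSC libraries, 2 KO and 2 WT, of the 8 libraries in the series. Every gene of the LT-HSC table entered the comparison, which held 19685 genes. Both groups were sorted by flow cytometry from mouse bone marrow 20 weeks after transplantation of marrow, in one group of WT and in the other of Tet1 KO genotype, from mice given as 6 months old, of a strain spelled CD57BL/6 in the labels. Each library was made from poly(A) RNA of 10000 sorted cells and read as 50 bp pairs. The other 4 libraries are multipotent progenitors (MPP) of the same genotypes, made from 100000 cells each, and serve here only to test where the LT-HSC difference was unlike that in MPP. The sources used here do not give the sort gates, the sex of donors and recipients, the part of Tet1 removed or whether replicates are separate animals. The p-values therefore measure the spread between the libraries of a group, and that spread may be technical.

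Tet1 encodes a dioxygenase that oxidises 5-methylcytosine, an early step of active DNA demethylation, and it also recruits repressive complexes at promoters rich in CpG. LT-HSC are rare, mostly quiescent marrow cells that rebuild all blood lineages after transplantation. They lie upstream of the erythroid path, in which the factors Gata1 and Klf1 switch on the genes of the red cell membrane, of heme and of globin, and of the megakaryocyte path, which leads to platelets. Quiescence of LT-HSC is known to depend on niche signals such as TGF-beta, on cell cycle brakes such as p21, and on adhesion to the niche.

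The KO libraries held more reads spread along gene bodies than the WT libraries. Over the 206 genes spanning at least 500 kb, the median count per kb of span was 0.451 and 0.384 in KO and 0.0783 and 0.0699 in WT. Applied to the span of every gene, these rates amount to 8.69% and 7.84% of all counts in KO and to 1.48% and 1.45% in WT. Long genes rose with it: 83.5% of tested genes over 500 kb were called higher, against 7.60% of those under 10 kb. Lrp1b, a receptor gene of very long span, had 862 and 785 counts in KO and 139 and 106 in WT, where the rates give an expected 1717 over the KO pair. Dmd, the dystrophin gene, had 756 and 640 against 111 and 131, with 1883 expected over the KO pair. A further 3 gene models of satellite-like repeats, Gm16869, Gm10800 and Gm10801, took 7.68% and 9.87% of the KO counts and 0.181% and 0.213% of the WT counts. The results below therefore rest on low-background genes, those whose expected background is under 10% of their counts over the 4 libraries: 10851 genes, of which 10251 had enough counts to be tested.

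**Figure D1:**
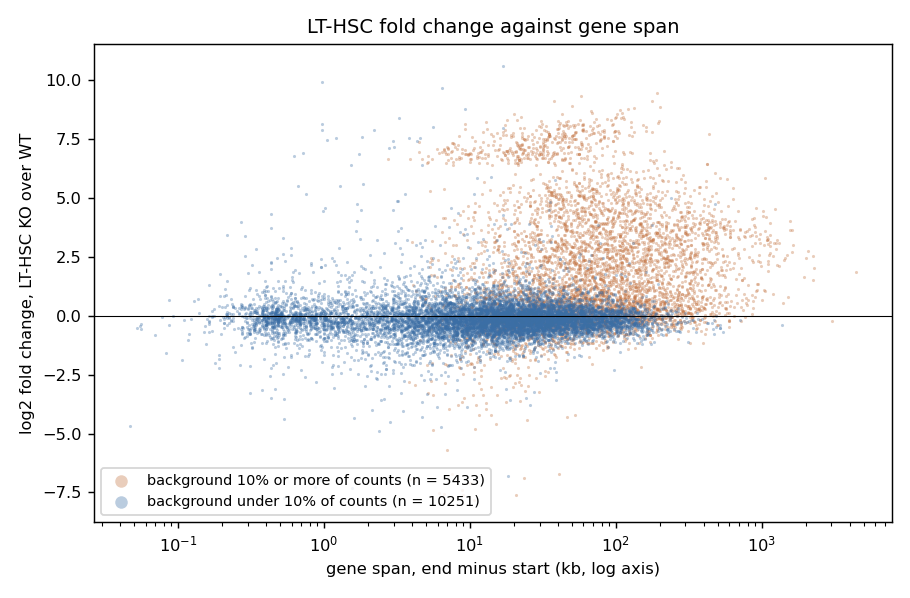
Log2 fold change of LT-HSC KO over WT (vertical axis) against gene span in kb (horizontal log axis) for each tested gene. Blue points are the 10251 genes with an expected background under 10% of their counts, and orange points are the 5433 others, which lie mostly above 0 (median 1.36).

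Total counts ran from 4976459 to 5479731 per library, and after scaling by the trimmed mean of M values (TMM) the effective sizes lay between 5158993 and 5237947, so that raw counts of the 4 libraries can be set side by side. The 3 counts taken as the floor correspond to 0.547 to 0.603 CPM (counts scaled by library size) in a library and cover counting error only. Log-scale values correlated at 0.973 within KO and 0.977 within WT. The fold changes that follow are log2 differences from edgeR's quasi-likelihood test with Benjamini-Hochberg adjustment over all 15684 genes tested. The KO libraries also differed in composition, and scaling on low-background genes alone raised fold changes by a median of 0.16, so rises are understated and falls overstated by about that much relative to the typical low-background gene.

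Tet1 itself did not separate the groups. It had 336 and 379 counts in KO and 332 and 428 in WT, with a log2 difference of -0.09 (SE 0.19, adjusted p = 0.765). The groups overlapped, and 11% of the KO counts is expected background. As the removed part is not known, counts over the full length of Tet1 check the labels only weakly, and KO below means the libraries labelled KO. The Y-linked gene Eif2s3y had 1 and 2 counts in KO and 158 and 200 in WT, and Ddx3y had 26 and 30 against 374 and 400. Both KO libraries were far below both WT libraries for these genes, so an effect of sex cannot be told apart from one of genotype anywhere in this comparison. Of 12 markers of LT-HSC, all present in every library, 5 fell and 7 did not pass. Their summed level was 2222 and 2163 CPM in KO and 3254 and 3099 CPM in WT. Procr, a surface receptor used to sort stem cells, had 299 and 248 against 411 and 345 counts, and Hlf, a stem cell transcription factor, had 1310 and 1442 against 1000 and 1314; both were below the threshold, with adjusted p = 0.0892 and 0.335.

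Among low-background genes 667 of 10251 (6.51%) were called higher in KO and 1512 (14.7%) lower, against 22.5% and 10.9% of all 15684 tested genes. Of the low-background calls, 418 rises and 556 falls were at least 2-fold. Rises made up 30.6% of all low-background calls. Genes near 0 in WT count as low background only through their KO counts. With scaling on low-background genes the calls became 970 higher (9.46%) and 911 lower (8.89%), and rises made up 51.6%. With the expected background subtracted, 599 were higher and 489 lower. The number of calls depended on single libraries: without KO replicate 1 there were 242 higher and 338 lower, without KO replicate 2 there were 386 and 405, and without WT replicate 2 there were 2281 lower. Counts of rises and falls in the gene lists below are to be read beside the 6.51% and 14.7% of all low-background genes. Most falls in the gene lists were sensitive to single libraries in the same way. The falls of a list are therefore followed by their number under 4 other settings, in this order: low-background scaling, background subtraction, without KO replicate 1 and without KO replicate 2. A total of 450 calls, 225 in each direction, held in every alternative that tested the gene, and they are called the stable calls here. In these bulk samples, more cells of a type and more RNA per cell cannot be told apart.

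Red cell genes rose together. Over 6 lists of red cell genes, 55 of 97 tested low-background members rose, 5 fell and 37 did not pass. Rises numbered 58, 54, 43 and 50 under the 4 settings and falls 2, 1, 1 and 1. The summed level of 6 erythroid markers was 2439 and 1663 CPM in KO against 409 and 285 CPM in WT, and the part of a change in cell makeup was not tested. Among the regulators, 6 of 18 rose and 3 (Klf13, Xpo7 and Lmo4) fell, with 1 fall under each of the 4 settings. Klf1, the transcription factor of late red cell genes, at chromosome 8, 87425827 to 87429194 on mm9, had 664 and 691 counts in KO and 42 and 60 in WT, which is a log2 difference of 3.73 (SE 0.22, adjusted p = 7.87e-05). The lowest KO library was many times above the highest WT library. Gata1, the factor that opens the erythroid programme, had 544 and 615 against 342 and 277, giving a log2 difference of 0.91 (SE 0.18, adjusted p = 0.0053); without KO replicate 2 its adjusted p was 0.06. Epor, the receptor of erythropoietin, had 453 and 297 against 97 and 91, with a log2 difference of 2.00 (SE 0.25, adjusted p = 9.11e-04). Klf3, a repressor that Klf1 is known to activate, went from 166 and 166 to 467 and 481. Lmo4, an adaptor protein of transcription complexes, fell from 245 and 226 to 100 and 82. The factors Tal1, Gfi1b, Ldb1, Nfe2 and Myb, which stem cells also express, did not pass. At the level of the regulators the change was thus uneven, with a median of 0.27 over the 18.

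The upstream sequences of Epor and Steap3, whose product reduces iron taken up by red cell precursors, are shown because each carries the word that GATA factors bind. They are the 250 bases before the start site in RefSeq on GRCm38.p6, minus strand, written 5′ to 3′ with AGATAA or its reverse complement in capitals; Epor lies at chr9:21963577-21963826 and this start of Steap3 at chr1:120271081-120271330.
Epor: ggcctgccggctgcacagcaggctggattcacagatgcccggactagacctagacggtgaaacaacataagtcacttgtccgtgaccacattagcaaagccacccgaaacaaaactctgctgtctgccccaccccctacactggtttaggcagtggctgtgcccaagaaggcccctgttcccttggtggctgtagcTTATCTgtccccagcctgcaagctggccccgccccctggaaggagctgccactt
Steap3: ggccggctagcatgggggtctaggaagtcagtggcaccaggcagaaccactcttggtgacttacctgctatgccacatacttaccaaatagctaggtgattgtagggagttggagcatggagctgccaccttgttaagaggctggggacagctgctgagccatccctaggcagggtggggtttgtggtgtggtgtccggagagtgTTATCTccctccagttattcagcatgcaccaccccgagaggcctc
The word begins 54 bases before the start in Epor and 45 bases before it in Steap3. Over windows of 250 bases before to 50 after the start, on both strands, AGATAA occurred in 9 of 52 promoters (17.3%) of the risen red cell genes, of which 36 of 55 were matched by symbol. It occurred in 11.2% of all 32851 promoters, in 11% of those of low-background genes that rose and in 6.50% of those that fell. The 9 were those of Cpox, Epor, Hemgn, Kel, Pklr, Rhd, Slc29a1, Steap3 and Trim10. A match is a description of the letters and not a bound site.

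Of the red cell membrane and surface genes, 16 of 23 rose, 2 fell and 5 were below the threshold (median 2.36), and 15 of the rises were stable. Several genes of the membrane skeleton rose, while Epb4.1 and Add1, which encode protein 4.1 and an adducin, did not pass. The spectrin genes Spna1 (alpha) and Spnb1 (beta) went from 75 and 89 to 1284 and 1075 counts and from 263 and 265 to 2353 and 2158. Ank1, the ankyrin that ties spectrin to the membrane, had 2328 and 1842 in KO against 151 and 140, giving a log2 difference of 3.84 (SE 0.19, adjusted p = 4.74e-05). Epb4.2 and Epb4.9, which encode protein 4.2 and dematin of the same skeleton, had 356 and 324 counts in KO against 11 and 34 and 414 and 313 against 16 and 16. All of these had both KO libraries above both WT libraries. Among the surface antigens, Kel (the Kell protease) had 698 and 663 against 54 and 51 counts, Rhag (the Rh-associated ammonium channel) 983 and 1012 against 101 and 109, and Ermap (the Scianna antigen) 2076 and 2104 against 155 and 128. Slc4a1, the anion exchanger band 3, rose by 2.36 (SE 0.18). The genes that fell were Bcam, the Lutheran antigen, which other cells also make, at -1.50, and the glucose transporter gene Slc2a1 at -0.81. Both falls were lost when KO replicate 1 was left out (adjusted p = 0.0593 and 0.149), as they were without KO replicate 2 (0.0627 and 0.171) and with the background subtracted, and that of Slc2a1 also with low-background scaling, that of Bcam also with no filter on low counts.

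Heme genes rose at several steps of the pathway. Of 19 genes of heme synthesis, transport and breakdown 14 rose and 5 were below the threshold (median 1.14), and 15, 14, 9 and 11 rose under the 4 settings. None was called lower by edgeR, by DESeq2 or at an unadjusted p under 0.05. Uros, which closes the tetrapyrrole ring, had 246 and 207 against 31 and 41, which is a log2 difference of 2.65 (SE 0.27, adjusted p = 3.81e-04). Cpox, a later step in mitochondria, had 1288 and 1266 against 314 and 335, and Fech, which inserts the iron, had 917 and 968 against 357 and 324. In each of these steps the KO libraries were above both WT libraries. Alas1, the first enzyme in cells other than red cells, and Hmox1, which degrades heme, did not pass. Hebp1, a heme-binding protein, rose by 2.84 (SE 0.24), and Blvrb, a biliverdin reductase abundant in red cells, by 2.41 (SE 0.18). Tspo2, a translocator protein of the erythroid lineage, had 77 and 78 counts against 2 and 2. It is among the 14 rises but, near 0 in WT, was low-background only through its KO counts.

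Of 16 iron genes, 5 (Tfrc, Steap3, Slc11a2, Slc40a1 and Glrx5) rose and 11 did not pass. Tfrc, the transferrin receptor through which precursors take up iron, had 2456 and 2350 counts in KO and 578 and 534 in WT, giving a log2 difference of 2.11 (SE 0.16, adjusted p = 1.37e-04). Steap3 had 685 and 736 against 127 and 135, with a log2 difference of 2.44 (SE 0.17, adjusted p = 1.05e-04). Slc11a2, which carries iron out of the endosome, rose by 1.61 (SE 0.19), and Slc40a1, the iron exporter ferroportin, went from 6 and 12 to 129 and 141. Uptake and export genes were thus both among the rises, while the ferritin genes Fth1 and Ftl1 and the sensors Ireb2 and Aco1 did not pass.

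Enzymes and other proteins typical of red cells rose in 10 of 17 cases and did not pass in 7, and 8 of the rises were stable. Pklr, the pyruvate kinase of red cells and liver, had 820 and 653 counts in KO and 14 and 27 in WT, which is a log2 difference of 5.16 (SE 0.30, adjusted p = 6.27e-05). Car1, a carbonic anhydrase, had 5585 and 3376 against 574 and 350, giving a log2 difference of 3.28 (SE 0.31, adjusted p = 2.94e-04). Prdx2, a peroxidase of red cells, went from 194 and 205 to 608 and 663. The KO libraries differed from each other for Car1, yet the lower one was above both WT libraries. Globin genes were already present in WT, and all 4 tested rose, with a median of 1.91 and 2 of the rises stable. Hba-a1 and Hbb-b1 rose less than Pklr and Car1. Hba-a1 had 4370 and 2657 counts in KO and 1035 and 640 in WT, with a log2 difference of 2.07 (SE 0.29, adjusted p = 0.00153), and Hbb-b1 had 2705 and 1366 against 852 and 361, which is a log2 difference of 1.75 (SE 0.41, adjusted p = 0.0121). In both groups replicate 1 was the higher library. Near-identical copies (Hba-a2 and Hbb-b2) leave the split of reads within each pair uncertain. The call of Hbb-b1 ended without KO replicate 1 (adjusted p = 0.0872), with DESeq2 and with no filter on low counts.

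**Figure D2:**
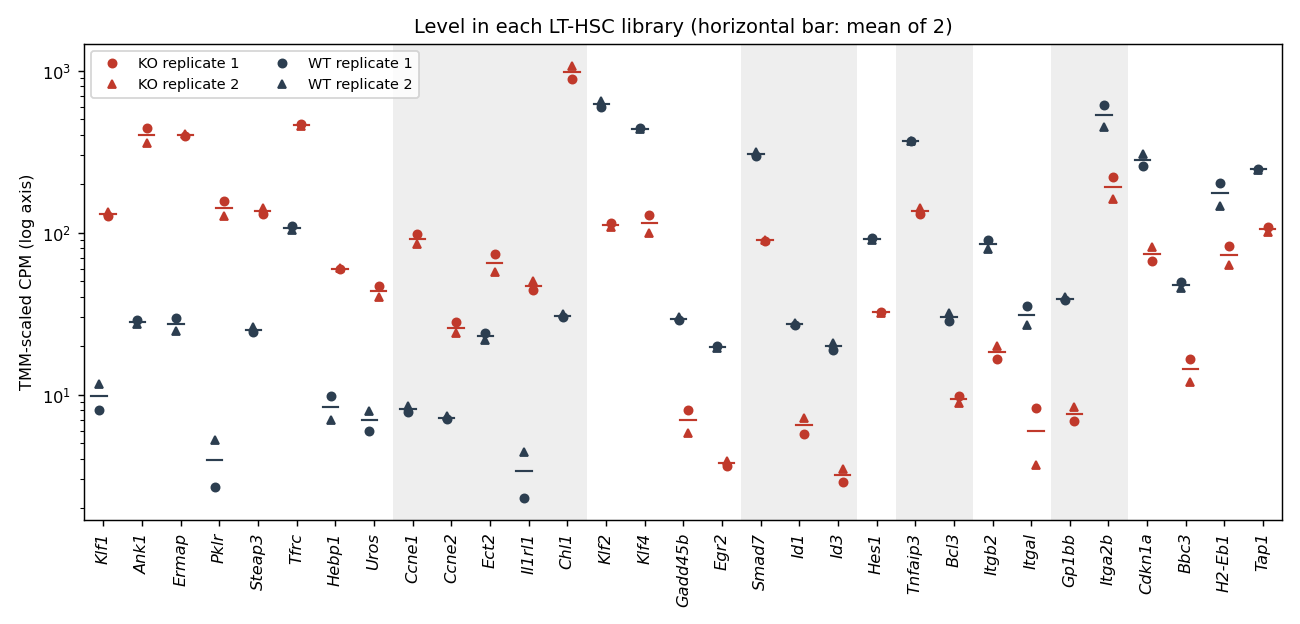
TMM-scaled CPM (vertical log axis) of 31 genes in each LT-HSC library, with KO in red, WT in dark blue, replicate 1 as circles, replicate 2 as triangles and a bar at the mean of 2. Shaded and plain bands hold, from left, red cell genes, E cyclins with other rises, immediate early genes, and TGF-beta and BMP genes. Then follow Notch, NF-kB, adhesion and platelet genes, and last brake, apoptosis and MHC genes. Red and blue do not overlap for any gene shown, as for Klf1 with 664 and 691 counts in KO against 42 and 60. The genes were picked among called genes, so this is description only.

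Immediate early genes, which respond within minutes to growth factors, cytokines or handling, fell in most cases. They numbered 45, of which 32 fell and 13 were below the threshold (median -0.86), and falls numbered 27, 17, 10 and 17 under the 4 settings. None rose by edgeR, by DESeq2 or at an unadjusted p under 0.05. Klf2, a quiescence-linked factor, at chromosome 8, 74842932 to 74845555 on mm9, had 596 and 559 counts in KO and 3141 and 3350 in WT, giving a log2 difference of -2.49 (SE 0.16, adjusted p = 9.48e-05). Klf4, a related factor, had 676 and 511 against 2309 and 2240, with a log2 difference of -1.94 (SE 0.18, adjusted p = 2.85e-04). Gadd45b, a stress sensor, had 42 and 30 against 151 and 155, and Egr2 had 19 and 20 against 104 and 100. These 4 had no overlap between groups and were among the 9 stable falls. The most abundant members moved less. Nr4a1, an orphan nuclear receptor gene, went from 24617 and 24571 to 14078 and 13724 counts (log2 fold change -0.82), Fos from 12167 and 12162 to 7973 and 8065 (-0.60) and Egr1 from 11716 and 13372 to 8229 and 9163 (-0.53, adjusted p = 0.0616). The calls of Nr4a1 and Fos were lost without KO replicate 1 (adjusted p = 0.136 and 0.254), without KO replicate 2 (0.154 and 0.247) and with the background subtracted, and that of Fos also with low-background scaling or the 5 CPM filter.

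Btg2, an antiproliferative immediate early gene, is shown with its upstream sequence because it holds the cyclic AMP response element that several genes of this class carry. The window lies at chr1:134079156-134079405 (GRCm38.p6, RefSeq, minus strand), with TGACGTCA in capitals, beginning 166 bases before the start.
Btg2: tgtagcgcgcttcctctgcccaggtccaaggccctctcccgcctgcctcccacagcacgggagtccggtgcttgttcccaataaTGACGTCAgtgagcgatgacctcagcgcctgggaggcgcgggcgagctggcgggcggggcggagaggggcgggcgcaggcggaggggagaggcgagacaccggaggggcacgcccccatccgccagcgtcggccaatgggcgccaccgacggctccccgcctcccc
Btg2 had 1285 and 1437 counts in KO and 2295 and 2637 in WT, which is a log2 difference of -0.86 (SE 0.17, adjusted p = 0.00512), with adjusted p = 0.104 without KO replicate 1. This palindrome occurred in 2 of 37 promoters (5.41%) of the immediate early genes that fell, those of Btg2 and Maff, with 28 of 32 genes matched. It occurred in 1.79% of all promoters, in 2.56% of those of low-background genes that rose and in 2.24% of those that fell.

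Genes of TGF-beta and bone morphogenetic protein (BMP) signalling, which restrains stem cell cycling, fell at several levels of the pathway. Of 21 low-background members 13 fell and 8 were below the threshold (median -0.80), with 12, 10, 7 and 9 falls under the 4 settings. The ligand gene Tgfb1 had 1478 and 1364 counts in KO and 3001 and 2910 in WT, giving a log2 difference of -1.05 (SE 0.16, adjusted p = 0.00181). The co-receptor gene Tgfbr3 had 557 and 528 against 1162 and 1190, with a log2 difference of -1.11 (SE 0.15, adjusted p = 0.00139). Smad7, a feedback inhibitor that the pathway itself induces, had 464 and 467 against 1552 and 1614, which is a log2 difference of -1.76 (SE 0.15, adjusted p = 2.17e-04). In all of these both KO libraries lay below both WT libraries with narrow spread. The inhibitors of DNA binding, direct targets of BMP signals, followed: Id1 had 30 and 37 counts against 140 and 143, Id2 had 10 and 12 against 78 and 67, and Id3 had 15 and 18 against 99 and 108. Their log2 fold changes were -2.07, -2.70 and -2.64. The signal transducers changed less, with Smad4 at -0.62, a call that ended without any of WT replicate 1 (adjusted p = 0.134), KO replicate 1 (0.235) or KO replicate 2 (0.151), with DESeq2, with 3 of the other scalings or filters and with the background subtracted. Smad1, Smad3 and Smad5 did not pass.

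Notch genes fell in 8 of 19 cases, with 6, 3, 2 and 3 falls under the 4 settings, and none rose by edgeR, by DESeq2 or at an unadjusted p under 0.05. The target gene Hes1, a repressor of differentiation, had 169 and 165 counts in KO and 482 and 464 in WT, giving a log2 difference of -1.50 (SE 0.17, adjusted p = 6.46e-04). The ligand gene Dll1 had 2 and 5 against 49 and 58. Both had separate groups. Rbpj, the DNA-binding partner of Notch, fell by 0.86 on the log2 scale, with adjusted p = 0.0807 without KO replicate 1. Of 17 Wnt genes 4 (Fzd5, Fzd8, Lrp5 and Wls) fell, and 4, 2, 2 and 2 under the 4 settings. The Wnt falls were 23.5% of the list, against 14.7% of all low-background genes. As a whole the Wnt list did not lean lower, with a median of 0.004 against -0.16 over all low-background genes. The receptor gene Fzd8 went from 146 and 196 to 14 and 21 counts, and Wls, needed to secrete Wnt proteins, from 698 and 663 to 337 and 312.

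NF-kB genes, both subunits and inhibitors, fell in 12 of 23 cases, and in 7, 5, 5 and 4 under the 4 settings. Tnfaip3, the deubiquitinase that ends NF-kB signals, had 678 and 729 counts in KO and 1927 and 1911 in WT, with a log2 difference of -1.44 (SE 0.15, adjusted p = 4.94e-04). Nfkbia, the classical inhibitor, had 321 and 282 against 732 and 618, and Bcl3, an atypical one, had 51 and 46 against 150 and 164. These 3 inhibitors or feedback genes, themselves known NF-kB targets, were the stable falls of the list. The subunit gene Relb had -1.02, ending without KO replicate 1 (adjusted p = 0.0618) or KO replicate 2 (0.0752).

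Antigen presentation genes fell in 15 of 22 cases, with a median of -0.90, and in 13, 8, 10 and 5 under the 4 settings. Tap1, the peptide transporter, had 570 and 519 counts in KO and 1300 and 1264 in WT, which is a log2 difference of -1.23 (SE 0.15, adjusted p = 9.37e-04). The class II gene H2-Eb1 had 432 and 327 against 1061 and 755, giving a log2 difference of -1.26 (SE 0.21, adjusted p = 0.00306), and H2-Ab1 had 412 and 366 against 791 and 761. Those groups did not overlap. The class I gene H2-K1 varied between replicates, with 5966 and 3901 in KO and 11131 and 7030 in WT (-0.88), and its call ended without WT replicate 1 (adjusted p = 0.0753), KO replicate 1 (0.0558) or KO replicate 2 (0.288), with low-background scaling, with either other filter and with the background subtracted. Class I genes share sequence, so the division of reads among them is uncertain. Interferon response genes had 16 falls and 3 rises among 54, with 12, 8, 8 and 7 falls under the 4 settings and 25 without WT replicate 2; leaving out KO replicate 1 or KO replicate 2 gave 1 rise each. Gbp4, an interferon-induced GTPase, went from 503 and 289 to 165 and 137 counts and Psmb8, an immunoproteasome subunit, from 341 and 205 to 100 and 87. Xaf1 went the other way, from 136 and 112 to 344 and 290 (log2 fold change 1.36). Of the 54, 35 did not pass, among them Irf7, Isg15 and Stat2. Falls were 29.6% and rises 5.56% of the 54, against 14.7% and 6.51% of all low-background genes.

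Cytokine receptor genes fell in 8 of 26 cases (5, 2, 2 and 1 under the 4 settings) and rose in 2. Falls were 30.8% and rises 7.69% of these genes, against 14.7% and 6.51% of all low-background genes. Il1rl1, the interleukin-33 receptor, had 230 and 259 counts in KO and 12 and 23 in WT, with a log2 difference of 3.80 (SE 0.33, adjusted p = 2.08e-04). Csf2rb2, a beta chain of the interleukin-3 receptor, had 80 and 80 against 327 and 195, which is a log2 difference of -1.70 (SE 0.28, adjusted p = 0.00269). The groups stood apart for both genes. Among JAK-STAT genes and their Socs feedback inhibitors 8 of 25 fell, and 6, 4, 2 and 2 under the 4 settings. The 8 falls were 32% of the list, against 14.7% of all low-background genes, and none was stable. Socs3 had -0.94, with adjusted p = 0.0716 without KO replicate 1, and Jak3 had -1.05, with 0.0666 without KO replicate 2.

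Adhesion and homing receptors fell in 10 of 22 cases, and in 6, 5, 5 and 6 under the 4 settings. Itgb2 and Itgal together form the leukocyte integrin LFA-1. Itgb2 had 87 and 103 counts in KO and 471 and 409 in WT, giving a log2 difference of -2.21 (SE 0.20, adjusted p = 2.51e-04), and Itgal had 43 and 19 against 184 and 138, with a log2 difference of -2.37 (SE 0.38, adjusted p = 0.00245). Both KO libraries were below both WT libraries for each chain. Itga6, a laminin receptor chain, went from 1837 and 1677 to 832 and 840. Cxcr4, the receptor that holds stem cells in marrow, had -0.68, a call that ended without WT replicate 2 (adjusted p = 0.0551), KO replicate 1 (0.233) or KO replicate 2 (0.0826), with upper quartile or low-background scaling and with the background subtracted.

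Platelet and megakaryocyte genes went down while red cell genes went up: 15 of 27 fell, 2 rose and 10 did not pass, and falls numbered 13, 10, 7 and 11 under the 4 settings. Their 4 markers summed to 302 and 237 CPM in KO and 830 and 640 CPM in WT. Itga2b, the integrin chain CD41, had 1158 and 837 counts in KO and 3234 and 2307 in WT, which is a log2 difference of -1.47 (SE 0.22, adjusted p = 0.002). Gp1bb, part of the von Willebrand receptor of platelets, had 36 and 43 against 200 and 206, giving a log2 difference of -2.35 (SE 0.25, adjusted p = 4.95e-04), and Selp, which encodes P-selectin, had 197 and 213 against 679 and 454. None of these groups overlapped. Vwf, which also marks platelet-biased stem cells, went from 2659 and 2096 to 1118 and 1000. The rises were Gata1 and Thbs1, the latter from 110 and 89 to 262 and 231.

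Stem cell genes leaned lower. Of 19 surface genes 9 fell and 1 (Cd82) rose, and of 24 transcription factor genes 11 fell; under the 4 settings the surface falls numbered 7, 5, 6 and 5 and the factor falls 5, 4, 2 and 2, and 5 and 2 of the falls were stable. Thy1, a surface marker of stem and T cells, had 19 and 24 counts in KO and 110 and 108 in WT, with a log2 difference of -2.33 (SE 0.33, adjusted p = 0.00153). Esam, an adhesion molecule of stem cells, had 209 and 173 against 499 and 458, which is a log2 difference of -1.32 (SE 0.18, adjusted p = 0.00138). Fli1, an ETS factor, had 1015 and 1014 against 1904 and 2001. The replicates of these genes lay close together and the groups apart. Meis1, a partner of Hox proteins, went from 2799 and 2850 to 1556 and 1621, with adjusted p = 0.0917 and 0.0596 without KO replicate 1 or 2. Kit, Slamf1, Procr, Hlf, Bmi1, Gfi1 and Hoxa9 did not pass. The erythroid marker sum was higher in the same KO libraries, and its part in these falls was not tested.

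Cell cycle genes changed in both directions. Over the lists of cell cycle entry and brakes, DNA replication and mitosis, 16 of 114 members rose, 7 fell and 91 did not pass; all 7 falls were among entry and brake genes. Rises numbered 24, 18, 4 and 11 under the 4 settings and falls 4, 4, 2 and 3, and without WT replicate 2 there were 17 falls. The entry and brake genes that rose were Ccne1, Ccne2, Ccna2, E2f2, E2f4 and the inhibitor gene Cdkn2c, and those that fell were Ccnd1, Cdk6, Cdkn1a, Cdkn2d, E2f5, E2f7 and Mdm2. E2f2 and E2f4 were also counted among the risen erythroid regulators above. Ccne1, a partner of Cdk2 at the start of DNA replication, had 513 and 439 counts in KO and 41 and 44 in WT, with a log2 difference of 3.48 (SE 0.21, adjusted p = 8.20e-05). Ccne2, its homologue, had 146 and 123 against 37 and 38, which is a log2 difference of 1.84 (SE 0.28, adjusted p = 0.00203). Cdkn1a, the brake p21, had 351 and 418 against 1359 and 1572, giving a log2 difference of -1.93 (SE 0.18, adjusted p = 2.67e-04), and Cdkn2d, another inhibitor of cyclin-dependent kinases, had 107 and 57 against 368 and 188, with a log2 difference of -1.76 (SE 0.38, adjusted p = 0.00809). The groups were separate for all 4. Ect2, which directs cytokinesis, went from 126 and 113 to 384 and 293. Mcm10 and Cdc6, which load or activate the replicative helicase, rose by 0.97 and 0.97, and both calls were lost without KO replicate 1 (adjusted p = 0.0791 and 0.0835). The helicase genes Mcm2 to Mcm7 and Pcna did not pass. Of 44 replication and 37 mitosis genes 5 each rose, or 11.4% and 13.5%, against 6.51% of all low-background genes. Replication rises numbered 10, 6, 0 and 5 under the 4 settings and mitosis rises 8, 6, 2 and 2. None of them was called lower by edgeR or DESeq2, and 1 and 3 were lower at an unadjusted p under 0.05, while 3 and 8 were called lower without WT replicate 2. As all 6 erythroid markers rose too, in which cells the cycle genes rose was not tested.

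Of the Bcl2 family 4 of 10 fell (2, 1, 1 and 1 under the 4 settings) and 1 rose. Falls were 40% and the rise 10% of the list, against 14.7% and 6.51% of all low-background genes. The list median of -0.12 lay near the -0.16 of all low-background genes. Bbc3, the p53 target Puma, had 87 and 62 counts in KO and 260 and 236 in WT, which is a log2 difference of -1.73 (SE 0.24, adjusted p = 0.00149). Pmaip1, the p53 target Noxa, had 13 and 19 against 46 and 56; its call ended without KO replicate 1 (adjusted p = 0.168) or 2 (0.0649) and with the background subtracted. Bcl2l13, a mitochondrial member, went from 364 and 378 to 698 and 719. Trp53 itself did not pass.

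Glycolysis genes went both ways, with 17.9% higher and 28.6% lower, against 6.51% and 14.7% of all low-background genes. Of 28, 5 rose and 8 fell; under the 4 settings rises numbered 6, 4, 2 and 4 and falls 3, 1, 0 and 0, with 4 falls without WT replicate 1, and none of the falls was stable. Pklr, described above, rose, while Pkm2, the pyruvate kinase of most other cells, had 2181 and 1579 counts in KO and 4572 and 2631 in WT (-0.93), with its call ending without WT replicate 1 (adjusted p = 0.0722), KO replicate 1 (0.0632) or KO replicate 2 (0.188), with no filter on low counts and with the background subtracted. Of 30 antioxidant genes 4 (13.3%) rose and 2 (6.67%) fell, with 0 falls under each of the 4 settings and 8 rises without WT replicate 2. Gclc, the limiting enzyme of glutathione synthesis, went from 366 and 405 to 796 and 779. Among 78 nuclear genes of oxidative phosphorylation 7 rose and 1 fell; without KO replicate 1 there were 2 rises, and without WT replicate 2 there were 11 rises and 15 falls. The 7 rises were 8.97% of these genes, against 6.51% of all low-background genes. Ndufs1, a complex I subunit, went from 125 and 113 to 325 and 257 and Ndufa1, another, from 193 and 114 to 55 and 45.

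Some genes of cells other than LT-HSC were also higher in KO. Of 27 tested genes of bone and niche stroma 8 were low-background, and genes near 0 in WT were among these only through their KO counts, so no tally of them is given as support. Col1a1, the main collagen of bone, had 1683 and 1136 counts in KO and 4 and 7 in WT, giving a log2 difference of 7.97 (SE 0.34, adjusted p = 3.76e-05), and Col1a2 had 1384 and 887 against 120 and 97, with a log2 difference of 3.39 (SE 0.25, adjusted p = 1.37e-04). Bglap, the osteocalcin gene, was at 0 in both WT libraries and at 184 and 62 in KO, at least 82.1-fold higher if 3 counts over a group are the floor. Prg4, the lubricin gene, was at 0 against 194 and 200, at least 132-fold higher. The 5 stromal markers summed to 640 and 425 CPM in KO and 23.7 and 20.9 CPM in WT, where Cxcl12 and Bglap were at 0. Of 20 low-background granulocyte and monocyte genes 5 rose, 3 (Lyz2, Fcer1g and Cst3) fell and 12 were below the threshold; their median was -0.19, and falls numbered 2, 1, 2 and 1 under the 4 settings. Members near 0 in WT, such as Ngp, were again low-background only through their KO counts, so this tally is description only. Ngp, a neutrophil granule gene, was at 0 in both WT libraries and at 44 and 40 counts in KO, at least 28-fold higher, and the 6 granulocyte markers summed to 39.2 and 41.7 CPM against 8.4 and 7.55 CPM. The 4 endothelial markers summed to 95.4 and 96.1 CPM in KO and 109 and 108 CPM in WT. Expected background was 23.1% of their KO counts, and 1 of the 4 was called higher. Nkg7, a granule gene of cytotoxic cells, fell from 333 and 311 to 38 and 38. Immunoglobulin variable genes went both ways, as for Igkv6-20, with 166 and 74 against 2 and 3, and Igkv4-72, with 1 and 0 against 129 and 136. The part of these other cell types in the results was not tested.

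**Figure D3:**
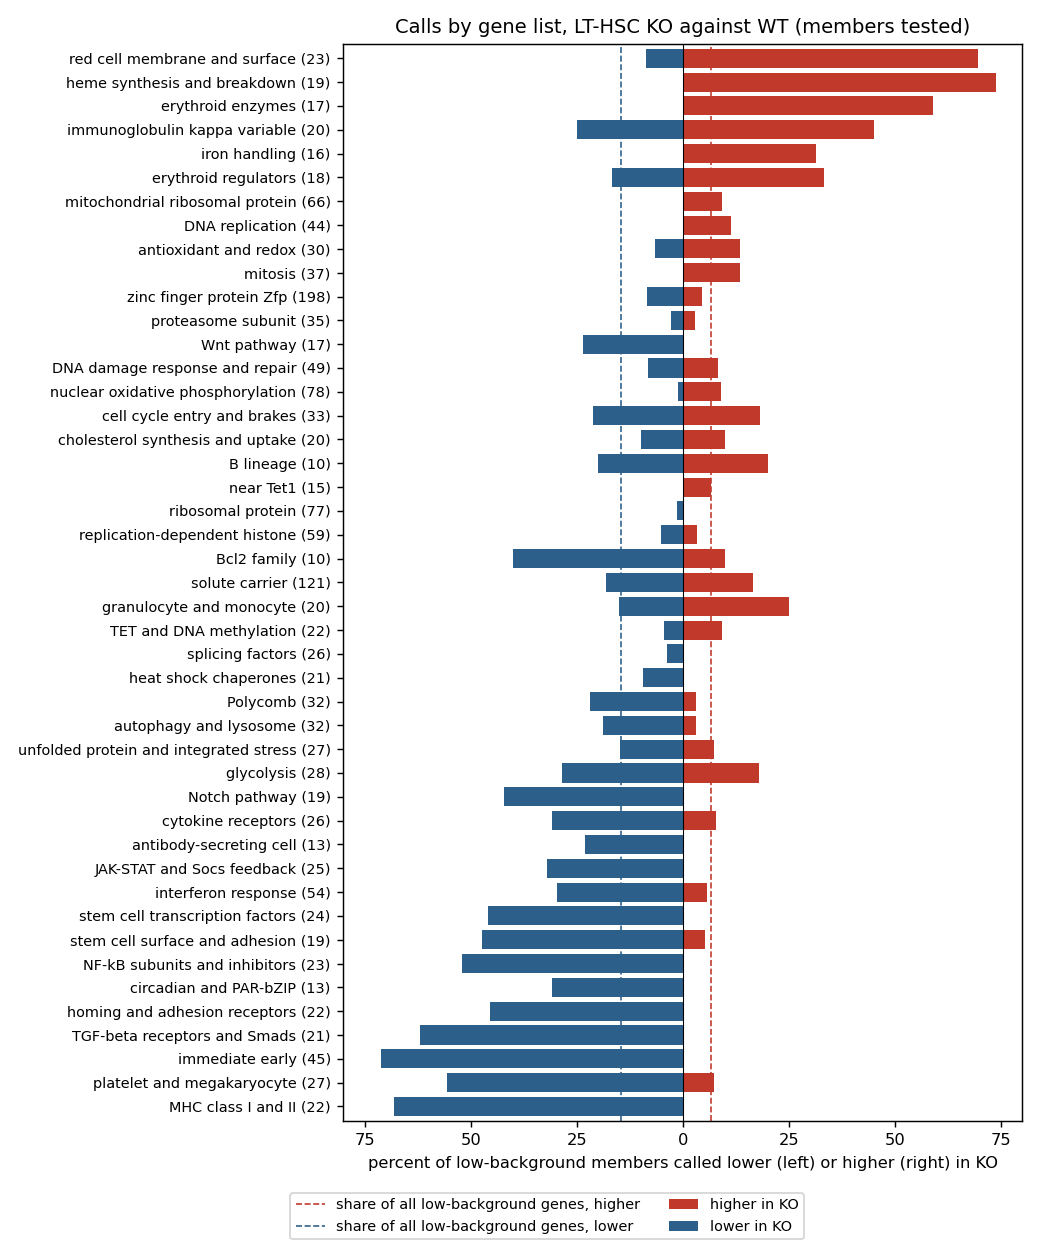
Percent of tested low-background members called lower (blue, left) or higher (red, right) in LT-HSC KO for each gene list with at least 10 such members, given in brackets and ordered by median log2 fold change. Dashed lines mark the 14.7% and 6.51% of all low-background genes called lower and higher; heme, red cell membrane and red cell enzyme genes extend farthest to the right and immediate early, MHC and TGF-beta genes farthest to the left.

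Outside the lists, single genes changed by large amounts. Chl1, a neural cell adhesion molecule of the L1 family, had 4647 and 5537 counts in KO and 158 and 162 in WT, which is a log2 difference of 4.99 (SE 0.20, adjusted p = 3.76e-05). Its span of 239 kb gives an expected background of 2.18% of its counts. Cldn13, a claudin known from erythroid cells, had 213 and 254 against 4 and 6, giving a log2 difference of 5.51 (SE 0.35, adjusted p = 8.61e-05). Sphk1, which makes sphingosine 1-phosphate, went from 13 and 29 to 307 and 282 counts. Each had both KO libraries far above WT. Among the largest falls were Bhlhe40, a clock-linked repressor, from 464 and 634 to 87 and 106, Ncf4, a subunit of the phagocyte oxidase, from 226 and 152 to 21 and 23, and Robo3, an axon guidance receptor gene, from 492 and 498 to 101 and 88. Vill, a villin-like actin regulator, fell from 608 and 411 to 53 and 32.

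The genotype difference was tested against that in MPP with an interaction term over all 8 libraries. It was more positive in LT-HSC for 2256 of 16551 genes (13.6%) and more negative for 1407 (8.5%); among 10571 low-background genes these were 610 (5.77%) and 1161 (11%). Of the 2179 low-background genes called in LT-HSC, 1329 (61.0%) had an interaction in the same direction. These genes were picked by an LT-HSC difference that is part of the interaction term, so an excess in that direction is built in. Over the 6 red cell lists 54 of 60 called genes (90%) had an interaction in the direction of their call. Klf1 had a log2 fold change of 1.11 in MPP against 3.73 in LT-HSC (interaction 2.61, SE 0.26, adjusted p = 0.00147). Ank1 had 1.24 in MPP, with interaction adjusted p = 3.85e-04. For both genes the difference was larger in LT-HSC by this test. Of 32 fallen immediate early genes 25 had a more negative difference than in MPP, Klf2 among them (-0.16 in MPP, adjusted p = 2.85e-04). Of 15 fallen MHC genes 8 were more negative than in MPP, and of 13 fallen TGF-beta genes 8. These 2 shares are not far from the 61.0% of all low-background calls. Smad7 had -0.47 in MPP (adjusted p = 0.00187), whereas Id1 had -1.58 in MPP and its interaction did not pass (adjusted p = 0.294), nor did those of Tgfbr3, Ddx3y and Eif2s3y. The interaction of Tet1 was 0.53 (SE 0.23, adjusted p = 0.133), with -0.63 in MPP. The populations differ in cell number per library, in depth and in background, and their part was not tested.

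**Figure D4:**
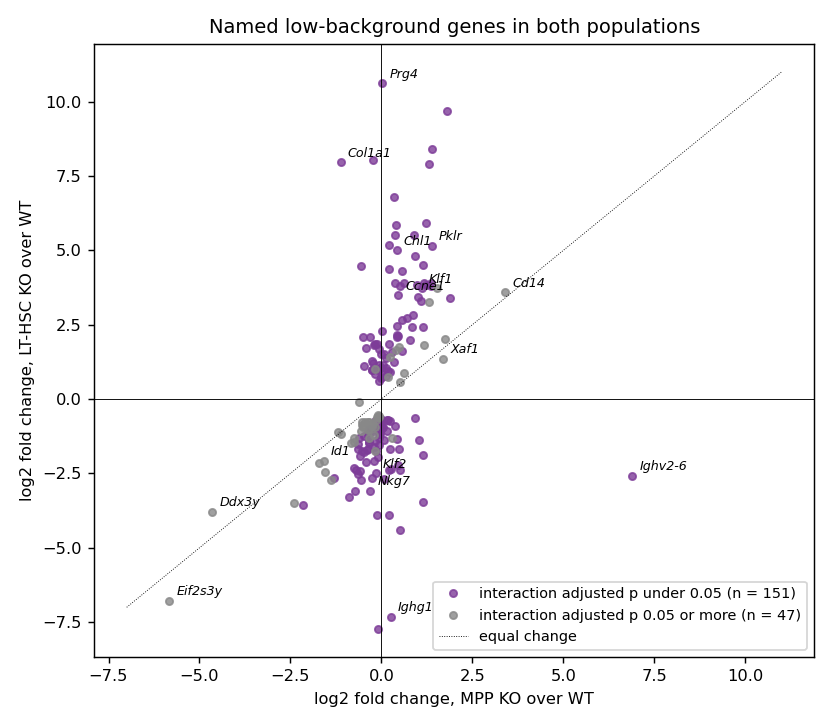
Log2 fold change of KO over WT in LT-HSC (vertical axis) against that in MPP (horizontal axis) for low-background genes named by rule. Purple points have an interaction adjusted p under 0.05 and the dotted line marks equal change; Klf1, at 3.73 in LT-HSC and 1.11 in MPP, lies above it, while Ddx3y and Eif2s3y lie near the line.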

How the data were processed

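RNA of 8 libraries was read as 50 bp pairs. Per the submitters' processing notes CASAVA, TopHat and the mm9 build were used; the sources used here give no read counter, annotation or version. For LT-HSC and for MPP the authors deposited a table of each gene's raw count in every library, with symbols and mm9 positions. Per the file headers the tables also give a log2 fold change and a mean log2 CPM. A likelihood ratio score, a p-value and an FDR stand beside them per the file headers, and none of these columns was used. Genotype and replicate in the column names gave each column's sample, and 0 columns of sample values were left over.

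Counts were tested with edgeR 4.0.16 in R 4.3.3 (filterByExpr, TMM, quasi-likelihood test, Benjamini-Hochberg adjusted p-values under 0.05), 2 KO against 2 WT libraries, and for the interaction over all 8. The test was checked on simulated data first. Those data held no excess of gene-body or satellite reads in KO, so the check does not cover that excess. The background rate of a library is the median count per kb of span over genes of at least 500 kb, and expected background is rate times span. DESeq2 1.42.0, other scalings and filters, subtracted background, a replicate block and left-out libraries served as alternatives. The SE of a fold change comes from its test statistic. Promoters are RefSeq windows on GRCm38.p6 matched by symbol. A CACCC word (CCNCNCCC) and an E2F word (TTTGGCGC) were also searched. The first occurred in 71.2% of promoters of risen red cell genes, 72.5% of those of fallen low-background genes and 49.5% of all promoters. In the same order the second occurred in 3.85%, 0.971% and 0.514%.

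The genes named are Tet1, the 20 largest rises and 20 largest falls among called low-background genes (at least 50 normalized counts on average, separate groups, a descriptive symbol), at most 4 called genes per list by size, the 5 longest genes called higher and the 10 largest interactions; not all are printed, and some are not reported here. Members and lists were chosen with earlier results of these data known. Separate groups were a condition for the largest rises and falls, and the list genes were picked among called genes. Lack of overlap in these genes is therefore description and no further support. Btg2, Egr1, Fos, Nr4a1, Smad4, Tgfb1, Slc4a1, Rhag, Kel, Rhd, Spnb1, Fech, Cpox, Hemgn, H2-K1, H2-Ab1, Cxcr4, Itga6, Slc2a1, Bcam, Thbs1, Gata1, Vwf, Meis1, Procr, Hlf and the satellite models were added after their values were seen, as were members named only as not passing or as promoter matches.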

Additional observations from a re-analysis of the deposited data

Results flagged for a closer look

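The genotype difference in LT-HSC differed from that in MPP, by the interaction term of edgeR's quasi-likelihood test over all 8 libraries, for the 10 genes with the largest terms under the limits used for named genes. The log2 difference between the populations was 11.29 for Prg4, 9.09 for Col1a1 and 8.55 for Ccnb1ip1, a gene of meiotic recombination. It was 5.47 for Hrsp12, 4.62 for Cldn13 and 4.57 for Chl1. Among antibody genes it was 5.16 for Igkv6-20, -7.76 for Igkv4-72, -7.60 for Ighg1 and -4.63 for Ighv1-61. The adjusted p-values ran from 1.87e-04 for Chl1 to 0.00497 for Ighv1-61. Prg4 and Ccnb1ip1 had 0 counts in both LT-HSC WT libraries and Igkv4-72 had 1 count over the LT-HSC KO pair, so the fitted sizes depend on the prior count and are not bounds. In MPP, Chl1 had 81 and 91 counts in KO and 54 and 76 in WT, and Ighg1 had 5743 and 4619 and 4787 and 3961.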

How the results depend on the processing

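Counts of calls depended on the KO libraries, on scaling and on the background. Over all genes the 3529 rises and 1717 falls became 1946 to 4213 and 379 to 2543 when 1 library was left out, and over low-background genes the 667 and 1512 became 242 to 872 and 338 to 2281. Interaction calls (2256 above, 1407 below) ran from 798 to 2521 and from 334 to 1716 when 1 of the 8 libraries was left out. Left-out libraries that moved the low-background counts by over 1.5 times were KO replicate 1 (242 and 338), KO replicate 2 (386 and 405) and, for falls, WT replicate 2 (2281). With low-background scaling there were 1050 falls over all genes and 911 over low-background genes. With the background subtracted there were 1097 rises and 803 falls over all genes, 489 falls over low-background genes and 936 interactions above. The 5 CPM filter gave 2341 rises. Fitting all 8 libraries gave 3024 falls, and 1081 rises and 2628 falls at low background. The cause was not tested, beyond fewer samples or genes where these were left out. DESeq2, RLE and upper quartile scaling, no filter, other background limits and leaving out the satellite models (added after seeing the data) kept the LT-HSC counts within 1.5 times; of these, DESeq2, RLE scaling and no filter were also run for the interaction, with the same outcome. Counts per list follow the same pattern: immediate early falls ran from 10 to 36 when 1 library was left out.

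Replicate numbers are shared across groups; with 2 pairs they share only a number. The replicate differences of KO and WT correlated at 0.424. With the number as a replicate block there were 4009 falls over all genes, 1514 rises and 3633 falls at low background, and 4041 and 3899 interactions.

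Of 199 called low-background genes named by rule, 118 kept their call in every alternative that tested them; 72 lost it without KO replicate 1, 56 without KO replicate 2, 36 with background subtracted, 16 with DESeq2 and 12 with low-background scaling. The log2 fold change of Tet1 (-0.09) turned to 0.0035 with upper quartile scaling and 0.074 with low-background scaling, and ran from -0.29 to 0.083 when 1 library was left out, positive without WT replicate 2 or KO replicate 1. Mecom turned to 0.0054 with low-background scaling. Ptprd, a long gene, turned to -7.78 with the background subtracted, which left almost no counts. Depth limits genes near 3 counts.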

Other observations

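Transporters of the solute carrier family went both ways in LT-HSC KO: of 121 low-background members 20 rose, 22 fell and 79 did not pass, with 11, 4, 5 and 5 falls under the 4 settings (low-background scaling, background subtraction, without KO replicate 1 and without KO replicate 2). The rises and falls were 16.5% and 18.2% of these members, against 6.51% and 14.7% of all low-background genes. The red cell lists above also hold risen solute carrier genes: Slc4a1, Slc29a1, Slc25a37, Slc25a38, Slc11a2 and Slc40a1. The rises of this family are therefore not separate from those of the red cell lists. Slc38a5, a glutamine and serine transporter, had 500 and 433 counts in KO and 57 and 30 in WT, giving a log2 difference of 3.42 (SE 0.29, adjusted p = 1.88e-04) by edgeR. Slc30a10, a manganese exporter, had 79 and 115 against 2 and 1, and Slc12a4, a potassium chloride cotransporter of red cells, had 172 and 130 against 16 and 30. These 3 had separate groups and kept their calls in every alternative, which is description only. Slc30a10, near 0 in WT, was low-background only through its KO counts. Of 66 mitochondrial ribosomal protein genes 6 rose, among them Mrpl46 with 111 and 108 against 41 and 25, and 60 did not pass. The rises were 9.09% of these genes, against 6.51% of all low-background genes, and their number depended on single libraries.

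Of 13 clock and PAR-bZIP genes 4 fell (2, 2, 1 and 2 under the 4 settings). Nr1d1, a clock repressor, had 21 and 31 counts in KO against 88 and 81; without KO replicate 1 its adjusted p was 0.0824. Of 32 autophagy and lysosome genes 6 fell (5, 3, 2 and 1 under the 4 settings, 11 without WT replicate 2) and 1 rose, with Hexa, a lysosomal hexosaminidase, going from 548 and 400 to 222 and 195. Of 32 Polycomb genes 7 fell (4, 3, 2 and 2 under the 4 settings) and 1 rose; Kdm6b, which removes the Polycomb mark, went from 2347 and 1939 to 1147 and 1002 counts. Falls made up 30.8% of the clock, 18.8% of the autophagy and lysosome and 21.9% of the Polycomb members, against 14.7% of all low-background genes. Among 15 low-background genes near Tet1 the only call was the rise of Supv3l1, a mitochondrial helicase gene, from 132 and 151 to 249 and 212. It ended without WT replicate 1 (adjusted p = 0.0903), KO replicate 1 (0.26) or KO replicate 2 (0.106) and with DESeq2.

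Antibody genes were carried by few variable segments, and these differed between the genotypes. Ighg1 had 1 and 5 counts in LT-HSC KO and 625 and 370 in WT, Igkv6-29 had 95 and 45 against 0 and 1, and Ighv1-55 had 151 and 52 against 7 and 8. Over 20 tested kappa variable genes 9 rose and 5 fell, with 4, 2, 1 and 1 falls under the 4 settings and 4 rises without KO replicate 1. Segments near 0 in 1 genotype, such as Igkv6-29 in WT, passed the count and background limits through the other genotype, so the tally is description only. Variable segments share sequence, so counts of single segments are uncertain.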
